A study of Sus scrofa with 220 samples.

Results

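The inner cell mass (ICM) and the trophectoderm (TE) of the early blastocyst (EB) were compared in single cells of pig embryos. The members were the 24 cells labelled EB ICM and the 28 cells labelled EB TE, 52 of the 220 cells in the series. Within each embryo, counts of the cells of 1 lineage were added up, which gave 7 ICM sums and 10 TE sums, and 7 embryos had both lineages. The embryos were conceived in vivo by artificial insemination and flushed from the uterine horns of crossbred Large White and Landrace sows, with no genetic change and no treatment in either group. The early blastocysts were dissociated whole. The lineage names followed from clustering on all expressed genes, read with known markers. The authors describe the TE cells as those with GATA2, GATA3 and DAB2, which are among the genes tested here. The tests below, of lineage markers and of all other genes, use the same expression as the clustering. Their calls and p-values are therefore not independent evidence for the lineages. Morula (M) cells, from the stage before the blastocyst, are given as levels only, in 8 embryo sums.

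The TE is the outer epithelium of the blastocyst. It pumps fluid into the cavity and later forms the embryonic part of the placenta, and in the pig it signals to the uterus long before it attaches. The ICM is the inner group of cells that later divides into epiblast, the source of the embryo proper, and hypoblast, an extraembryonic endoderm that lines the cavity. Keratin filaments and GATA factors mark the TE in many mammals, whereas matrix proteins and pluripotency factors mark the ICM and the lineages it gives rise to.

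Depth was similar in both lineages. Total counts per cell ranged from 1056123 to 5041162 in ICM and from 1165967 to 3771591 in TE. The share of a cell's counts held by its 10 highest genes, averaged per embryo, was 5.65 to 6.97% in ICM (mean 6.18 ± 0.514%, SD, n = 7) and 6.85 to 13.1% in TE (mean 9.87 ± 1.82%, SD, n = 10), and was lower in ICM in all 7 embryos with both lineages (exact permutation test, two-sided, p = 0.000206, adjusted over 3 measures p = 0.000617, and exact sign-flip test over the 7 embryos, p = 0.0156, the smallest that test can give). The other measures, total counts per cell (adjusted p = 0.528, exact permutation test) and genes with a count per cell (mean 5924 ± 518 in ICM and 5244 ± 950 in TE, SD, adjusted p = 0.158, exact permutation test), did not pass. The share held by the 10 highest genes is not independent of the lineage names, which followed from expression. KRT8 had a median TPM of 28351 in TE cells and 148 in ICM cells, and its part in that share was not tested. The mitochondrial share of counts was not analysed here. All 8 sequencing pools held cells of both lineages. The sums held 1 to 9 cells, with 2 of the ICM sums and 3 of the TE sums made of 1 cell.

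Of the 28 TE cells, 2 stood apart by their markers. Cell E6-ER2 was the only cell of its TE sum. It had a TPM of 0 for KRT8, GATA3, DAB2, VCAN and FN1 and of 0.368 for KRT18. That goes against its label, and these markers place it in neither lineage. The cell's depth was not low, at 3291110 counts, though only 3839 genes had a count. Its sum had the highest TE level, as log2(CPM + 1), of some genes at higher levels in ICM. Among these were IL6R (7.91), OTX2 (8.67), KLF4 (9.29), HNF4A (6.48), SLC7A9 (6.94) and WWTR1 (7.33). For FGFR4, KIT and MDK another TE sum was higher. What kind of cell E6-ER2 is was not tested. Cell AB6 had a TPM of 1198 for KRT8, 117 for DAB2 and 0 for GATA3, against at least 12177, 607 and 22.8 in the other 26 TE cells. Both cells stayed in the main comparison because the labels place them in TE. The value without them is given where leaving them out changes the call of a gene reported here.

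**Figure D1:**
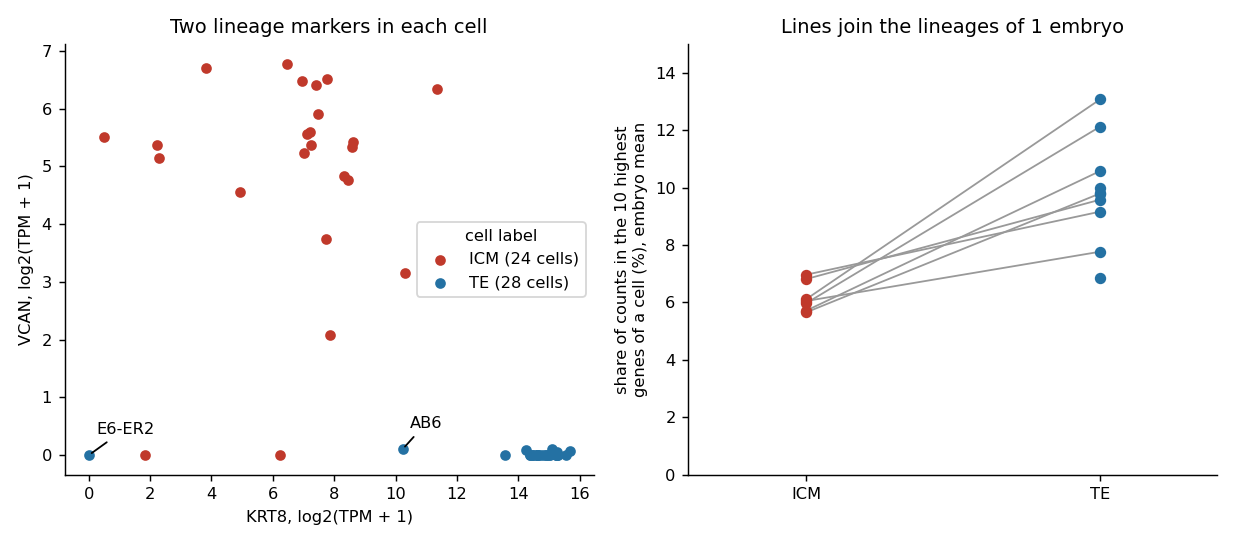
Left, KRT8 against VCAN in each of the 52 cells, as log2(TPM + 1); right, the share of counts in the 10 highest genes of a cell in percent, averaged per embryo and lineage, with lines joining the lineages of 1 embryo. TE cells other than E6-ER2 and AB6 lie at the far right with almost no VCAN, 2 ICM cells have no VCAN, and every joined line rises from ICM to TE.

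The 4 TE markers were higher in TE and the 2 ICM markers were higher in ICM, all past the threshold with and without cells E6-ER2 and AB6 and with the embryo as a block. When only the last 4 sequencing pools were used, KRT8, KRT18, GATA3, DAB2 and FN1 did not pass, and KRT8 did not pass with limma on the mean log2(TPM + 1). Levels are log2(CPM + 1) per embryo sum and are compared within a gene only. Log2 fold changes are ICM minus TE from edgeR's quasi-likelihood test, with Benjamini-Hochberg adjusted p over all 14721 genes tested. KRT8 (ENSSSCG00000000252), a keratin of simple epithelia, had levels of 6.71, 7.67 and 8.76 in ICM (lowest, median and highest of 7 sums) and of 0.00, 14.9 and 15.3 in TE (10 sums), a log2 fold change of -6.80 ± 1.04 (SE, adjusted p = 0.00235). The TE value of 0 is sum E6-ER, and the other 9 TE sums started at 13.545, above every ICM sum. Its filament partner KRT18 (ENSSSCG00000000253) had a median level of 5.18 in ICM and 13.4 in TE, a log2 fold change of -7.47 ± 1.03 (SE, adjusted p = 0.000696).

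GATA3 (ENSSSCG00000011125), a transcription factor of the TE, had levels of 0.00, 0.893 and 2.56 in ICM and of 0.00, 7.58 and 8.85 in TE, a log2 fold change of -7.28 ± 1.3 (SE, adjusted p = 0.00828). DAB2 (ENSSSCG00000016857), an adaptor of clathrin-mediated endocytosis, had levels of 0.652, 3.60 and 6.11 in ICM and of 0.00, 11.2 and 11.9 in TE, a log2 fold change of -6.93 ± 1.12 (SE, adjusted p = 0.00360). For both genes the 9 TE sums other than E6-ER lay above all ICM sums, from 7.38 for GATA3 and from 10.3 for DAB2. In the morula the median levels were 3.52 for GATA3 and 9.49 for DAB2, so the DAB2 level of the morula lay between those of the lineages and nearer to TE.

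VCAN (ENSSSCG00000014136), the matrix proteoglycan versican, had levels of 6.61, 8.13 and 9.35 in ICM and of 0.00, 0.00 and 0.514 in TE, with 18573 counts in ICM and 5 in TE. Its log2 fold change of 11.90 ± 0.85 (SE, adjusted p = 2.94e-08) had the smallest p of all genes. FN1 (ENSSSCG00000016174), fibronectin, had levels of 7.44, 9.22 and 11.1 in ICM and of 0.00, 0.980 and 6.16 in TE, a log2 fold change of 6.38 ± 1.15 (SE, adjusted p = 0.00763). Neither gene's ICM sums overlapped the TE sums. By cell, TPM was over 1 for VCAN in 22 of 24 ICM cells (91.7%, exact 95% interval 73.0 to 99.0) and in 0 of 28 TE cells (up to 12.3%), and for FN1 in 24 of 24 ICM cells and 3 of 28 TE cells (10.7%, 2.27 to 28.2).

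**Figure D2:**
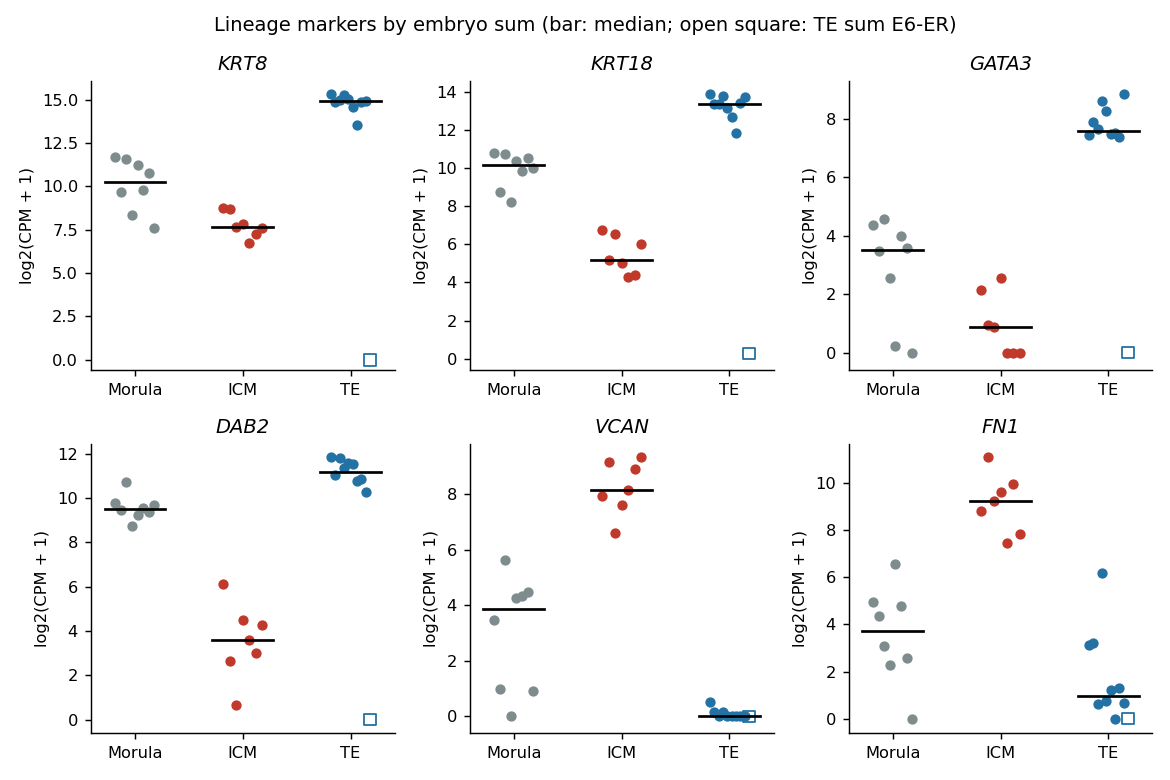
Levels of the 6 lineage markers, log2(CPM + 1), with 1 point for each embryo sum (8 morula, 7 ICM, 10 TE), bars at the medians and an open square for TE sum E6-ER. Apart from that sum, the TE sums lie above all ICM sums for KRT8, KRT18, GATA3 and DAB2, and all TE sums lie below all ICM sums for VCAN and FN1.

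Across all genes, 84 were called higher in ICM (0.571% of those tested) and 27 higher in TE (0.183%). Without cells E6-ER2 and AB6, 139 were higher in ICM (0.944%) and 66 in TE (0.448%), and 110 of the 111 calls were among them. With the embryo as a block, which compares lineages within embryos, 52 were higher in ICM (0.353%) and 37 in TE (0.251%). Only 35 of the 111 calls were shared, 15 of the 84 in ICM and 20 of the 27 in TE. Embryos AB, AH and E6-ER had TE sums only, so they add nothing to the lineage difference in that fit. Cells E6-ER2 and AB6 lie in such embryos, and the block therefore leaves them out of that difference as well. A value without these cells and a value with the block are thus not separate checks. The genes higher in ICM were mostly near-absent from TE: 33 of the 84 had no count in any TE sum and 59 had 3 or fewer. Of the genes higher in TE, 4 of 27 had no count in ICM. The same shares over all genes tested were not analysed here. The gene filter counted cells of every stage, so it let in genes with few counts in a lineage. With filterByExpr, edgeR's filter on low counts, 18 genes were higher in ICM and 19 in TE. Over all genes tested, 50 (0.34%) had every ICM sum above every TE sum and 4 (0.0272%) the reverse, of which the called genes were 22 and 3. Once E6-ER was left out, 83 (0.564%) had every ICM sum above every TE sum and 46 (0.312%) the reverse, and the called genes among these numbered 26 of 84 and 21 of 27.

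**Figure D3:**
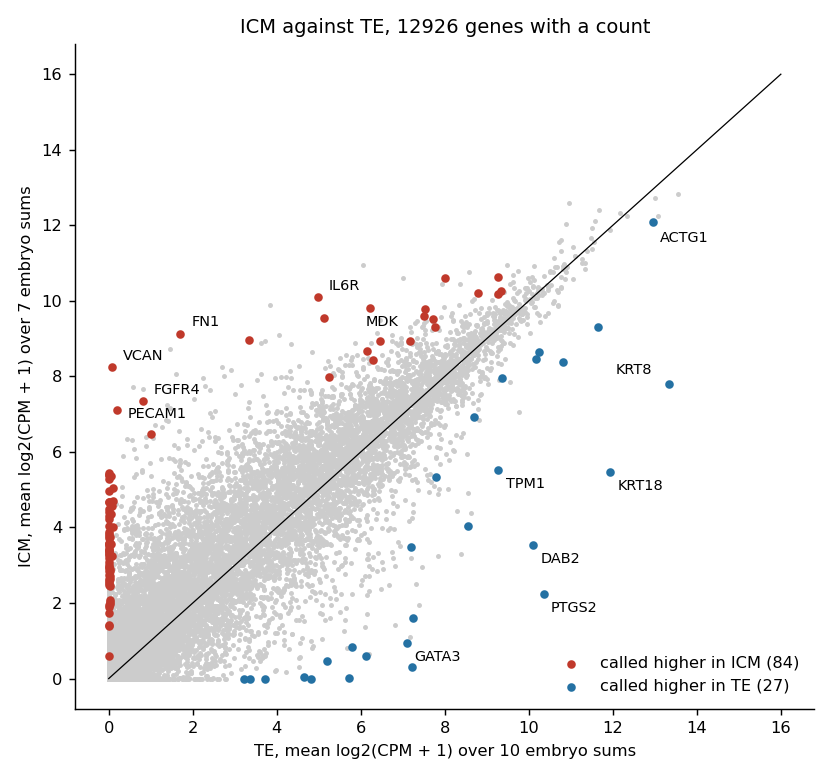
Mean level in ICM (7 sums) against mean level in TE (10 sums), both as log2(CPM + 1), for the 12926 genes with a count in either lineage; red and blue points are the 84 genes called higher in ICM and the 27 called higher in TE. Most red points lie on the left edge, where TE has almost no counts.

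TPM1, DSTN and ACTG1 were among the 12 leading genes higher in TE. TPM1, a tropomyosin that stabilizes actin filaments, had levels of 4.48, 5.61 and 6.49 in ICM and of 5.20, 9.79 and 10.7 in TE, a log2 fold change of -4.07 ± 0.53 (SE, adjusted p = 0.000427, edgeR). DSTN, which severs and depolymerizes actin filaments, had levels of 7.31, 8.55 and 8.99 in ICM and of 7.13, 11.4 and 11.7 in TE, a log2 fold change of -2.65 ± 0.42 (SE, adjusted p = 0.00305, edgeR). ACTG1, cytoplasmic gamma actin, differed less, with medians of 12.2 and 13.0 and a log2 fold change of -0.90 ± 0.16 (SE, adjusted p = 0.00566, edgeR). In all 3 genes TE was higher in 7 of 7 embryos with both lineages, the lowest TE sum other than E6-ER lay above the highest ICM sum, and the call held with the embryo as a block. Keratins and actins have near-identical copies in the genome, and how uniquely mapped reads divide among those copies is uncertain.

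Among 30 tested keratin and junction genes, 3 were higher in TE and none in ICM, with a median log2 fold change of -0.60 beside 0.09 over all genes with a count. Besides KRT8 and KRT18 this was PARD6B, a polarity protein of the apical Par complex. KRT8 and KRT18 are lineage markers chosen with earlier results of these data known, as are GATA3, DAB2, VCAN and FN1. The latter are counted in lists below. Over all genes tested, 0.571% were called higher in ICM and 0.183% higher in TE. PARD6B had levels of 5.91, 7.02 and 8.11 in ICM and of 7.60, 8.63 and 10.01 in TE, a log2 fold change of -1.81 ± 0.42 (SE, adjusted p = 0.0462, edgeR). That call was held in 3 of the 17 fits that each left out 1 sum (highest adjusted p = 0.103), and without E6-ER2 and AB6 (adjusted p = 0.0195, edgeR). EZR, ezrin, which links the apical membrane to actin, had median levels of 9.34 in ICM and 10.49 in TE (adjusted p = 0.113, 0.0405 without E6-ER2 and AB6 and 0.0400 with the embryo as a block).

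The transcription factors linked to the TE gave 1 call among 20 tested, GATA3, and 3 without cells E6-ER2 and AB6. GATA2, the paralogue of GATA3, had levels of 0.00, 0.00 and 4.70 in ICM and of 0.00, 7.81 and 9.36 in TE, and did not pass with all cells (log2 fold change -5.85 ± 1.56, SE, adjusted p = 0.0841, edgeR). It passed without the 2 cells (adjusted p = 0.0275) and with the embryo as a block (adjusted p = 0.0180). GRHL2, a grainyhead factor of epithelia, behaved in the same way with the 2 cells left out (adjusted p = 0.0611 with them and 0.0188 without) but not with the block (adjusted p = 0.119). Of the 3 highest genes of the list, TFAP2A had medians of 5.13 in ICM and 7.83 in TE and lay higher in TE in 7 of 7 embryos with both lineages, but did not pass (log2 fold change -2.09 ± 0.68, SE, adjusted p = 0.113, edgeR). TFAP2C had medians of 9.72 in ICM and 9.79 in TE, and TEAD4 had medians of 6.399 and 5.914, with an adjusted p of 1 for each, which does not show that they are equal.

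None of the 14 tested Hippo pathway genes was called by edgeR, while 5 had an unadjusted p under 0.05 and DESeq2 called 2. Over all 14721 genes tested, 2783 had an unadjusted p under 0.05 in edgeR and DESeq2 called 457. WWTR1, the co-activator TAZ that binds TEAD factors when Hippo signalling is low, had levels of 6.995, 8.18 and 8.57 in ICM and of 2.21, 5.91 and 7.33 in TE (log2 fold change 2.06 ± 0.54, SE, adjusted p = 0.0765, and 0.0167 without E6-ER2 and AB6). Its level was above that of TE in ICM in 7 of 7 embryos with both lineages.

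Endocytosis and membrane traffic genes gave 4 calls among 24 tested, all higher in TE. They were DAB2, PACSIN2, RAB2A and RAB3IL1, and the list's median log2 fold change was -0.20, or -0.42 with filterByExpr, edgeR's filter on low counts. PACSIN2, which bends membranes at endocytic sites, had levels of 3.95, 5.62 and 6.36 in ICM and of 6.63, 7.89 and 8.77 in TE, a log2 fold change of -2.39 ± 0.48 (SE, adjusted p = 0.0185, and 0.116 with the embryo as a block). RAB2A, a small GTPase of traffic between endoplasmic reticulum and Golgi, had levels of 7.34, 7.82 and 8.79 in ICM and of 8.92, 9.31 and 10.4 in TE, a log2 fold change of -1.39 ± 0.30 (SE, adjusted p = 0.0301). RAB3IL1, an exchange factor for RAB GTPases, had median levels of 0.00 and 5.57 (adjusted p = 0.0463, and 0.149 with the block). These 3 genes had no overlap between the lineages even with E6-ER included. RAB2A and RAB3IL1 held their call in 11 and 1 of the 17 fits that each left out 1 sum (highest adjusted p = 0.0807 and 0.105). None of 28 lysosome genes was called by edgeR. Of them 8 had an unadjusted p under 0.05 and DESeq2 called 3, beside 2783 and 457 of 14721 over all genes. NPC2, a cholesterol carrier of the lysosome, had medians of 6.81 in ICM and 9.48 in TE (adjusted p = 0.0535, 0.000504 without the 2 cells and 0.0111 with the block, edgeR).

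PTGS2 and EGLN3 were also higher in TE. Of 4 tested genes of conceptus signalling 1 was called, PTGS2. PTGS2, the cyclooxygenase that commits arachidonic acid to prostaglandins, had levels of 0.245, 0.655 and 6.69 in ICM and of 0.00, 11.6 and 12.6 in TE, a log2 fold change of -6.89 ± 1.58 (SE, adjusted p = 0.0435, edgeR). Of its ICM sums, 5 lay near 0 and the other two above 6. It was called in 2 of the 17 fits that each left out 1 sum (highest adjusted p = 0.0807). It passed without cells E6-ER2 and AB6 (adjusted p = 0.00777, edgeR) and with the embryo as a block (adjusted p = 0.00459). PTGES, which makes prostaglandin E from the product of PTGS2, had medians of 7.41 in ICM and 9.40 in TE (adjusted p = 0.145, and 0.00943 without the 2 cells). EGLN3, a prolyl hydroxylase that marks hypoxia-inducible factors for breakdown, had levels of 0.00, 0.00 and 1.86 in ICM and of 0.00, 7.85 and 9.41 in TE, a log2 fold change of -9.31 ± 1.54 (SE, adjusted p = 0.00388, edgeR).

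The remaining leading TE genes were of mixed function. PGM2, a phosphopentomutase, had levels of 7.82, 9.21 and 10.3 in ICM and of 8.45, 12.003 and 12.8 in TE, a log2 fold change of -2.47 ± 0.43 (SE, adjusted p = 0.00566, edgeR). SLC26A4, the anion exchanger pendrin, had 1 count in ICM and 7019 in TE, where its levels were 0.00, 6.49 and 8.97 (adjusted p = 0.00137, edgeR). Its pooled CPM was 6219 times as high in TE, with a counting interval of 1116 to 245690. ARPP21, a phosphoprotein that binds RNA, had 2 counts in ICM and 3239 in TE, a ratio of 1435 with a counting interval of 397 to 11854 (adjusted p = 0.00728, edgeR). NTRK3, a neurotrophin receptor, had no count in any of the 24 ICM cells and 4618 in TE, at least 1364-fold higher in TE when the ICM group is set to 3 counts (adjusted p = 0.0128, and 0.0737 with the block). LGALS3, galectin-3, which binds glycans at the cell surface, had median levels of 0.00 and 6.78 (adjusted p = 0.0459, and 0.00879 without cells E6-ER2 and AB6, edgeR). It was called in 2 of the 17 fits that each left out 1 sum (highest adjusted p = 0.0854).

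Matrix and adhesion genes gave 3 calls higher in ICM and 1 higher in TE among 29 tested, with a median log2 fold change of 1.31. The former were VCAN, FN1 and CDH2, and the latter was LGALS3. CDH2, N-cadherin, had levels of 0.00, 5.36 and 7.24 in ICM and of 0.00, 0.00 and 0.714 in TE, from 3555 and 3 counts, a pooled ratio of 1337 with a counting interval of 457 to 6488 (adjusted p = 0.00278, and 0.0465 with the embryo as a block, edgeR). The integrins that bind fibronectin did not pass: ITGA5 had medians of 7.64 in ICM and 5.78 in TE (adjusted p = 0.512), ITGAV 7.74 and 4.33 (adjusted p = 0.113), and ITGB1 9.66 and 8.47 (adjusted p = 0.191).

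Of 19 tested hypoblast genes, 3 were higher in ICM and none in TE, with a median log2 fold change of 1.70. PECAM1, an adhesion molecule also found on endothelium, had levels of 3.36, 7.73 and 8.54 in ICM and of 0.00, 0.00 and 1.25 in TE, a log2 fold change of 9.82 ± 1.16 (SE, adjusted p = 0.000128, edgeR). Its call held with the embryo as a block (adjusted p = 0.00892). RSPO3, a secreted enhancer of WNT signalling, had levels of 0.00, 2.23 and 5.80 in ICM with 2 counts in TE (adjusted p = 0.0194, and 0.512 with the block). Without ICM embryo AC or TE embryo AB the adjusted p for RSPO3 was 0.0538 and 0.0932. GATA6, a factor of early hypoblast, had medians of 7.28 in ICM and 7.54 in TE (adjusted p = 1), which does not show that they are equal. HNF4A, a nuclear receptor of endoderm, had medians of 6.63 in ICM and 0.00 in TE and lay higher in ICM in 7 of 7 embryos with both lineages. It did not pass with all sums (adjusted p = 0.292), but passed with the embryo as a block (log2 fold change 9.41 ± 1.73, SE, adjusted p = 0.0263, edgeR).

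Pluripotency genes gave 1 call among 20 tested, SALL2, and 4 without cells E6-ER2 and AB6, all higher in ICM. The median log2 fold change of the list was 1.34, and 0.51 with filterByExpr. SALL2, a zinc finger factor, had levels of 0.00, 4.65 and 5.79 in ICM, with 952 counts against 1 in TE, a pooled ratio of 1074 with a counting interval of 192 to 42481 (adjusted p = 0.00566, edgeR). The adjusted p for SALL2 was 0.159 with the block and 0.0512 without TE embryo AD. OTX2, a homeodomain factor, had levels of 9.20, 9.82 and 10.8 in ICM and of 0.00, 4.76 and 8.67 in TE (adjusted p = 0.105, and 0.0188 without the 2 cells). All ICM sums of OTX2 lay above all TE sums, yet the TE sums spread widely. KLF4 had medians of 8.77 and 5.31 (adjusted p = 0.169). Pluripotency factors whose entries could not be matched to a symbol were not analysed here.

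**Figure D4:**
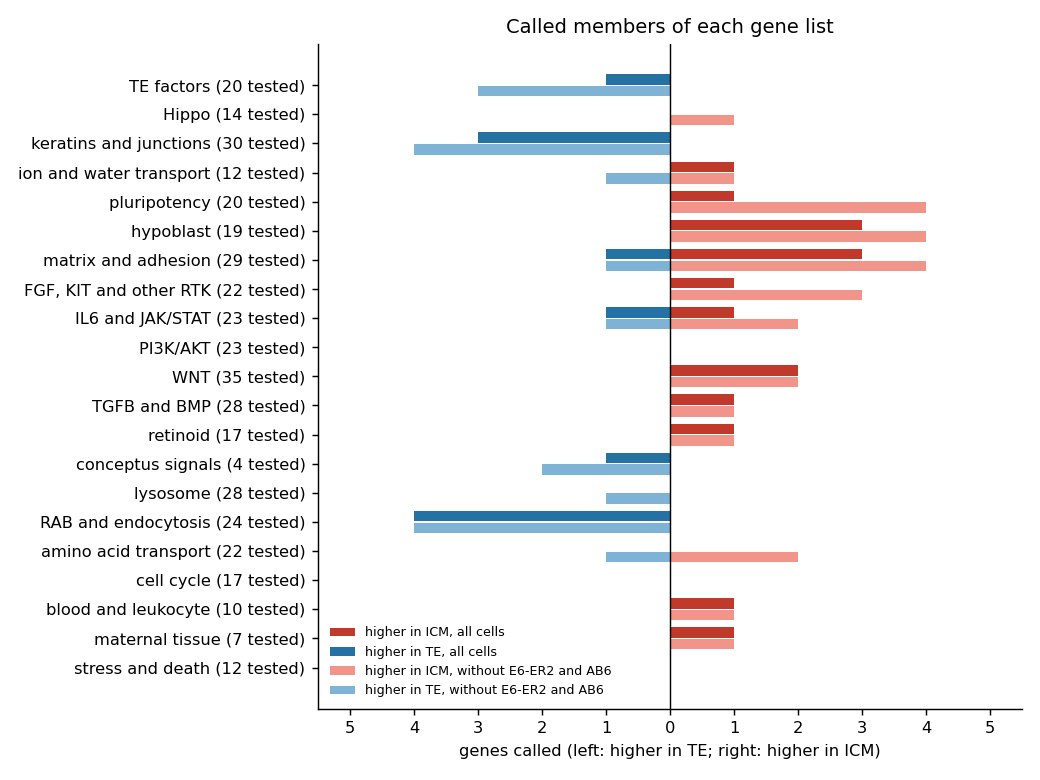
Number of called genes in each list, to the left for genes higher in TE and to the right for genes higher in ICM, with all cells (dark) and without cells E6-ER2 and AB6 (light), by edgeR at an adjusted p under 0.05; the number tested stands beside each name. With all cells, the traffic list (4) and the keratin list (3) have the most calls towards TE, the hypoblast and matrix lists (3 each) have the most towards ICM, and the other lists have 0 to 2 on a side. The counts include the lineage markers KRT8, KRT18, GATA3, DAB2, VCAN and FN1. Over all genes tested, 0.571% were called higher in ICM and 0.183% higher in TE.

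IL6R was higher in ICM and IL6 was higher in TE. IL6 binds IL6R, and the pair signals through IL6ST and JAK kinases to STAT3. IL6R had levels of 9.19, 9.96 and 11.5 in ICM and of 0.514, 5.601 and 7.91 in TE, a log2 fold change of 4.17 ± 0.77 (SE, adjusted p = 0.00844, and 0.0290 with the embryo as a block, edgeR). All ICM sums were above all TE sums, and IL6R had a TPM over 1 in 24 of 24 ICM cells and 15 of 28 TE cells (53.6%, exact 95% interval 33.9 to 72.5). IL6 had no count in any of the 24 ICM cells and 4282 in TE, where 7 of 10 sums had a count and the levels were 0.00, 3.85 and 7.73. It was at least 1265-fold higher in TE against the limit of 3 counts (adjusted p = 0.0427, 0.0155 without the 2 cells and 0.173 with the block), and was called in 3 of the 17 fits that each left out 1 sum (highest adjusted p = 0.0799). In the morula IL6 had levels of 2.95, 6.08 and 6.41, so all 8 morula sums held IL6 counts and no ICM sum did. IL6ST had medians of 8.61 in ICM and 5.49 in TE (adjusted p = 0.113, and 0.0424 without the 2 cells). Of 23 tested genes of the pathway, 1 was called in each direction, with a median log2 fold change of 0.83.

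Growth factor receptors and their ligands gave 1 call among 22 tested, FGFR4, with a median log2 fold change of 3.45. Without cells E6-ER2 and AB6 it was 3 and with the embryo as a block 5, all higher in ICM. EFNA1, an ephrin ligand, was 1 of the latter, with medians of 7.13 in ICM and 0.00 in TE (adjusted p = 0.177, and 0.0238 with the block, edgeR). FGFR4, a fibroblast growth factor receptor, had levels of 5.53, 7.52 and 8.61 in ICM and of 0.00, 0.0743 and 4.04 in TE, a log2 fold change of 6.18 ± 1.334 (SE, adjusted p = 0.0295, and 0.000681 with the embryo as a block, edgeR). It was called in 10 of the 17 fits that each left out 1 sum (highest adjusted p = 0.0724), and its lineages did not overlap. The highest FGFR4 levels in TE were those of sums AB (4.04) and E6-ER (3.51), which add nothing to the lineage difference with the block. The part of these sums in the change of its adjusted p was not tested. KIT, the stem cell factor receptor, had levels of 0.00, 8.88 and 9.37 in ICM and of 0.00, 1.47 and 4.85 in TE (adjusted p = 0.0971, and 0.0943 without the 2 cells). Over cells, KIT had a TPM over 1 in 21 of 24 ICM cells (87.5%) and 5 of 28 TE cells (17.9%). MDK, the heparin-binding growth factor midkine, had levels of 7.71, 8.80 and 9.92 in ICM and of 5.48, 6.401 and 7.62 in TE, with no overlap, a log2 fold change of 2.51 ± 0.39 (SE, adjusted p = 0.00278, and 0.0290 with the block, edgeR). Its morula levels of 2.50, 4.25 and 5.19 lay below those of every early blastocyst sum.

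**Figure D5:**
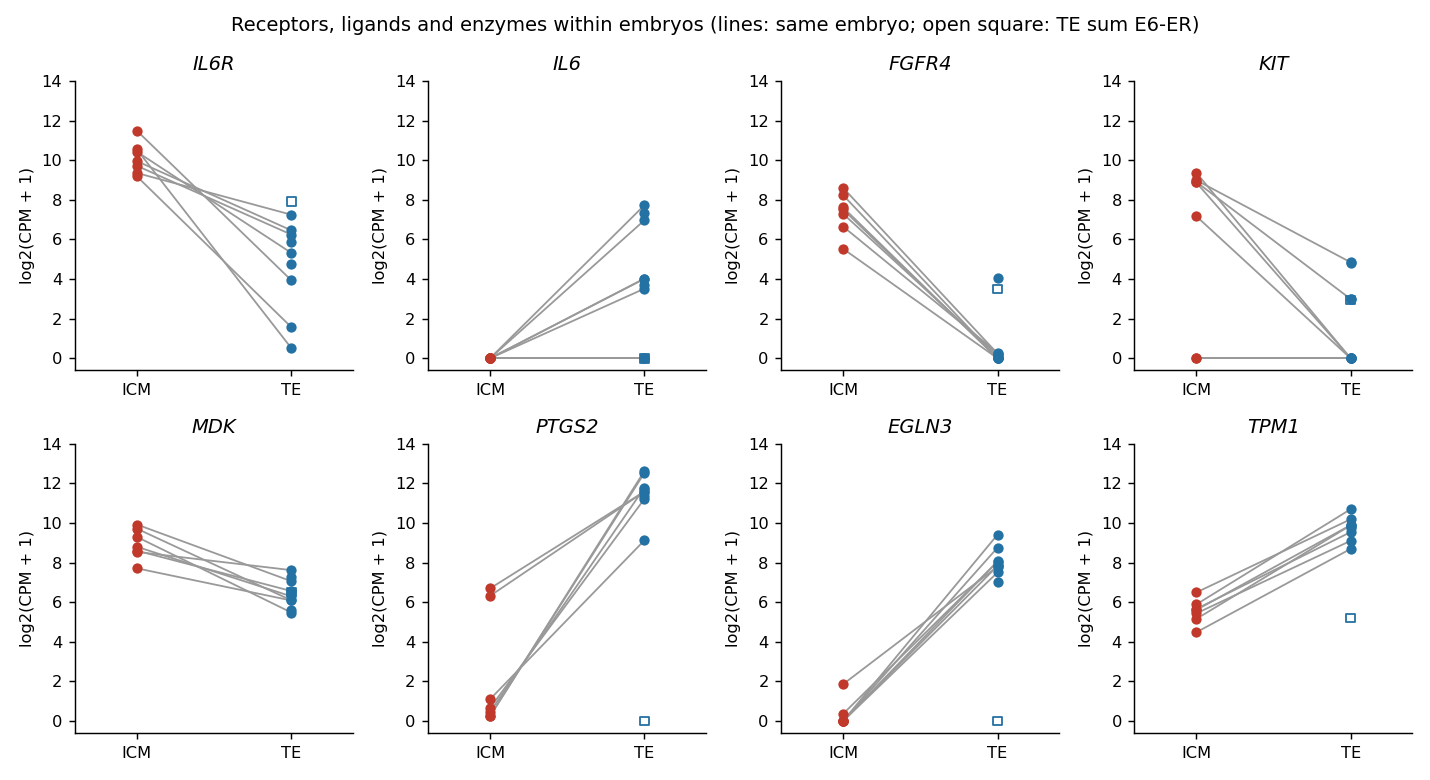
Levels, log2(CPM + 1), of IL6R, IL6, FGFR4, KIT, MDK, PTGS2, EGLN3 and TPM1 in each ICM and TE sum, with lines joining the lineages of 1 embryo and an open square for TE sum E6-ER. IL6R, FGFR4 and MDK are higher in ICM and PTGS2, EGLN3 and TPM1 are higher in TE in all 7 joined embryos, while IL6 is at 0 in every ICM sum.

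Of the WNT list 2 genes of 35 tested were higher in ICM, RSPO3 and ROR1, and neither call held with the embryo as a block. The list's median log2 fold change of 0.26 was 0.0031 once genes without a count in 1 lineage were set to their bound, and turned to -0.07 with filterByExpr. ROR1, a receptor for WNT5A, had no count in TE and 1994 in ICM, which puts the fold at 750 or more (adjusted p = 0.0383, and 0.393 with the block), and was called in 3 of the 17 fits that each left out 1 sum (highest adjusted p = 0.0773). CTNNB1, beta-catenin, had medians of 9.17 in ICM and 8.69 in TE (adjusted p = 0.971). In the TGFB and BMP list 1 gene of 28 was called, TGFBR3, a co-receptor that presents TGFB ligands. TGFBR3 had 1510 counts in ICM and none in TE, which bounds the fold at 568.05 from below (adjusted p = 0.0194, and 0.276 with the block). None of 23 genes of the PI3K and AKT list was called by edgeR or DESeq2, and its median log2 fold change was -0.34. None had an unadjusted p under 0.05 in edgeR (0 of 23), beside 2783 of 14721 over all genes.

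LRAT and AQP11 were also higher in ICM, without the call holding in either with the embryo as a block. LRAT, which stores retinol as retinyl esters, was the 1 call among 17 retinoid genes, with levels of 3.68, 5.81 and 6.77 in ICM and no count in TE. Its level was at least 1042-fold that of TE (edgeR adjusted p = 0.00360, and 0.160 with the embryo as a block). AQP11, an intracellular water channel, was the 1 call among 12 genes of ion and water transport, with levels of 4.60, 5.87 and 9.06 in ICM and of 0.00, 0.130 and 3.69 in TE (log2 fold change 6.20 ± 1.34, SE, adjusted p = 0.0294, edgeR). For AQP11 the adjusted p was 0.0699 with the block, and 0.0687, 0.0986, 0.0550 and 0.0529 without ICM embryos AA and AC and TE embryos AG and AH in turn. SLC34A2, a sodium-phosphate cotransporter, had medians of 2.13 in ICM and 7.71 in TE (adjusted p = 0.103, 0.0383 without the 2 cells and 0.0490 with the block), and its morula median was 10.46.

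The 2 subunits of a cystine and basic amino acid transporter, SLC7A9 and SLC3A1, were both at higher levels in ICM, though neither passed with all cells. SLC7A9, the transporting chain, had levels of 7.18, 8.44 and 11.2 in ICM and of 0.00, 0.284 and 6.94 in TE (adjusted p = 0.0647, 0.00216 without the 2 cells and 0.000339 with the block). SLC3A1, the chain that carries it to the membrane, had medians of 8.21 and 4.07 (adjusted p = 0.0829, and 0.0406 without the 2 cells). None of 22 amino acid transport genes was called by edgeR with all cells, and 3 were called without the 2 cells. With all cells 8 had an unadjusted p under 0.05 and DESeq2 called 2, beside 2783 and 457 of 14721 over all genes.

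C1QA, TLR3, CD200R1 and NOSTRIN were among the 12 leading genes higher in ICM, and none of these 4 calls held with the embryo as a block. C1QA, a chain of complement C1q, had levels of 4.01, 5.06 and 6.87 in ICM and no count in TE or morula, at least 1010-fold higher in ICM than in TE (adjusted p = 0.00388, and 0.170 with the embryo as a block, edgeR). It had a TPM over 1 in 20 of 24 ICM cells (83.3%, exact 95% interval 62.6 to 95.3). TLR3, a receptor for double-stranded RNA, had levels of 0.00, 6.38 and 7.49 in ICM, with 4932 counts against 1 in TE, a ratio of 5566 with a counting interval of 999 to 219890 (adjusted p = 0.000128, and 0.113 with the block). CD200R1, an inhibitory receptor of myeloid cells, had 3416 counts in ICM against 2 (adjusted p = 0.00457, and 0.0899 with the block). NOSTRIN, which regulates endothelial nitric oxide synthase, had 1763 counts in ICM against 1 (adjusted p = 0.00388, 0.393 with the block and 0.0550 without TE embryo AB, edgeR). Unlike C1QA, the other genes had counts in the morula, with median levels of 3.29 for TLR3, 2.61 for CD200R1 and 3.87 for NOSTRIN.

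Beside these stand the marker lists of other cells. All 10 tested blood and leukocyte markers had a count in ICM and 6 of 10 in TE, and C1QA was the 1 called. Their summed level per sum was 44.7 to 249 CPM in ICM (median 137) and 0.00 to 61.2 CPM in TE (median 26.04). Without C1QA it was 21.5 to 217 CPM in ICM, most of it from ITGAM and the haemoglobin gene HBB, with ICM medians of 5.45 and 4.56. The median level was 0 in ICM for CD68, LYZ, CD14, SPI1, FCER1G and LAPTM5. Their highest ICM sums were at 3.50, 6.16, 1.21, 0.956, 2.34 and 5.60 in that order. CD68, LYZ and LAPTM5 had no count in TE, while CD14, SPI1 and FCER1G had counts in both lineages. The part of these markers in the results was not tested. Among 7 maternal tissue markers only PECAM1 was called, and FOXA2, COL3A1 and ACTA2 had no count in ICM. VIM and PGR had a median of 0 in both lineages. The highest sum of VIM was at 4.98 in ICM, and that of PGR at 2.11 in ICM and 6.07 in TE.

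The other 3 leading ICM genes were SERPINB10, PLK2 and TAF7L. SERPINB10, a serine protease inhibitor, had levels of 0.00, 5.01 and 9.01 in ICM, with 7060 counts against 2 in TE (adjusted p = 0.000696, and 0.0699 with the block). PLK2, a polo-like kinase, had levels of 0.128, 5.84 and 8.60 in ICM, with 4615 counts against 3 in TE (adjusted p = 0.00198, and 0.112 with the block). TAF7L, a TFIID subunit known from germ cells, had levels of 0.00, 4.30 and 7.01 in ICM, with 1792 counts against 3 in TE (adjusted p = 0.00566, and 0.317 with the block). In each of these genes fewer than 12 of the 24 ICM cells had a TPM over 1, namely 11, 11 and 8.

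No gene of the cell cycle list (17 tested) or of the stress and cell death list (12 tested) was called by edgeR or DESeq2. In edgeR 1 and 2 of them had an unadjusted p under 0.05, beside 2783 of 14721 over all genes. CCNB1, the mitotic cyclin, had medians of 10.4 in ICM and 9.97 in TE (adjusted p = 0.933), and CDK1, its kinase, had medians of 9.17 and 8.33 (adjusted p = 0.118). HSPA5, a chaperone of the endoplasmic reticulum, had medians of 9.71 and 8.99 (adjusted p = 0.7996). The sex of the embryos was not analysed here, and its part in these results was not tested. Both lineages of 1 embryo share its sex, so the values with the embryo as a block compare lineages within a sex.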

How the data were processed

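Single cells were sequenced with Smart-seq2, which reads whole polyadenylated transcripts. The authors aligned reads to the pig genome with HISAT2 (2.1.0 in the submitters' processing notes), counted uniquely mapped reads per Ensembl gene with HTSeq, removed poor cells and deposited raw counts per gene and cell. The authors also deposited TPM values for the same 22840 entries, of which 11437 carried a symbol. Embryos were read from the letters of the cell identifier. The members and lists were chosen with earlier results of these data known.

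Raw counts were summed per embryo and lineage. Genes with TPM over 1 in at least 3 of 220 cells were tested (14721) with edgeR 4.0.16 (TMM, glmQLFit, glmQLFTest, R 4.3.3), and p-values were adjusted after Benjamini-Hochberg and called under 0.05. Levels are log2(CPM + 1), with TMM factors over morula, ICM and TE sums. Folds against a group with no count use 3 counts over the group. They compare counts pooled over all sums of a lineage, so they are no lower limit on the difference between embryos. Intervals cover counting error only. The p-values of the fits measure spread between embryo sums of 1 to 9 cells, which mixes differences between cells and between embryos. The main fit had no embryo term. Named genes were the 6 markers, the 12 called genes with the smallest p in each direction, called genes in a list, and for each list the 3 members with the highest level and the 3 with the smallest p. Not every gene that this rule names is reported here. Alternatives used DESeq2 1.42.0, limma 3.58.1 and scipy 1.17.1. The fits were checked on simulated data.

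Cells of 1 embryo share an animal, so the embryo pairs the sums. Residuals of the 7 same-embryo pairs correlated at -0.056 to 0.135 (median 0.055, 5176 genes) against a median of -0.009 for other pairs, and the blocked value is given where it changes a call.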

Additional observations from a re-analysis of the deposited data

Results flagged for a closer look

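A gap between 1 embryo sum and the rest, larger than Dixon's limit, was seen in 6 of 18 groups examined. The limit's rate of about 1 in 20 by chance is for independent, normally spread values. The groups here share the same sums and some hold levels at 0, so the count cannot be compared with that rate. In 4 of them it was TE sum E6-ER, which had a level of 0.00 for KRT8, GATA3 and DAB2 and of 0.282 for KRT18. The VCAN level of 0.514 in TE sum AA stood above the other TE sums, as did the FN1 level of 6.16 in TE sum AD. The E6-ER sum holds the single cell E6-ER2.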

How the results depend on the processing

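The comparison called 111 genes, and the count stood within 1.5 times of that with no TMM, with DESeq2's size factors, with no filter, with sums of at least 2 cells and with the replicate block (89). Of the 111 calls, 101 were shared with no TMM, 100 with DESeq2's size factors and 111 with no filter. Only 61 were shared with sums of at least 2 cells and 35 with the block, so a similar count there does not mean the same genes. The count was 457 with DESeq2, 226 with limma on the mean log2(TPM + 1), 37 with filterByExpr (7263 genes tested), 39 in the first 4 pools, 9 in the last 4 pools and 205 without cells E6-ER2 and AB6, chosen after seeing the data. Leaving out 1 sum gave 58 to 184 calls, outside 1.5 times without ICM embryos AA (61), AC (62), AF (67) and AG (58) and TE embryos AA (67), AC (68), AD (65), AG (66) and E6-ER (184). The split between ICM and TE was 18 and 19 with filterByExpr, 52 and 37 with the block, 62 and 49 with sums of at least 2 cells, 275 and 182 with DESeq2, and 18 and 21 in the first 4 pools, against 84 and 27. Of 1809 gene values under alternatives 206 lost and 62 gained a call, and 22 changed sign, all in genes called under none of them. TFAP2C turned from 0.05 to -0.03 (DESeq2, its size factors, without the 2 cells), -0.09 (limma), -0.14 (sums of at least 2 cells) and -0.21 (replicate block), and was -0.27 to 0.20 leaving out 1 sum. TEAD4 turned from 0.34 to -0.19 with the block (-0.03 to 0.51 leaving out 1 sum). GATA6 turned from -0.07 to 0.10 with the block and with sums of at least 2 cells and to 0.31 in the last 4 pools (-0.30 to 0.07 leaving out 1 sum). CTNNB1 turned from 0.26 to -0.15 with sums of at least 2 cells and to -0.02 in the last 4 pools. The cause of these shifts was not tested. Shares of ICM cells at TPM over 0 were 100% for KRT8, 91.7% for KRT18 and 70.8% for DAB2, shares of TE cells were 100% for KRT18, 17.9% for VCAN and 60.7% for FN1, and GATA3 was over 5 in 4.17% of ICM cells. With filterByExpr the median log2 fold change was 2.13 for the hypoblast, 2.15 for the leukocyte and 9.83 for the maternal list, the last from 1 gene. Genes near 0 counts in 1 lineage rest on few cells, and the embryo of E6-ER2 is read from its identifier.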
